A study of Mus musculus with 8 samples.

Results

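The 10 genes described here are Pou5f1, Sox2, Nanog, Sall4, Utf1, Dppa2, Dppa4, Dppa5a, Zfp296 and Gdf3, a named set of general pluripotency genes that naive and primed pluripotent cells share. All 10 were found by symbol among the 55401 genes of the count table, and all 10 were among the 17125 genes with enough counts to be tested. RNA was sequenced in 4 groups of 2 libraries from the R1 line of mouse embryonic stem cells (ESCs). Control ESCs (labelled WT) and Zfp462 knockout ESCs were grown on gelatin in serum medium with LIF, a cytokine that holds ESCs in self-renewal. Control and Zfp462 knockout embryoid bodies (EBs) were taken after 3 days as suspended aggregates, in which ESCs start to differentiate. The design asked how the loss of Zfp462, a zinc finger gene, bears on self-renewal and on differentiation. The knockout is described as stable lines, without the number of clones or the edited exon, and the labels name no separate cultures behind the 2 libraries of each group, so the p-values measure the spread between these libraries, which may be technical.

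Library totals ran from 12119763 to 16228426 counts. Levels are in CPM, a count unit scaled to library size and, by TMM factors, to composition, and differences are on the log2 scale. Zfp462 itself was lower in the 4 knockout libraries (102 to 107 CPM) than in the 4 control libraries (130.3 to 197 CPM), so the labels and the direction of its RNA went together, with much of that RNA still counted. The 2 knockout ESC replicates differed by GC content. Across 12023 well-counted genes, replicate 2 minus replicate 1 had a correlation with GC content of -0.69, against 0.00106 to 0.0402 for the replicate differences of the other 3 groups. That difference alone cannot say which of the 2 libraries carries the trend. Knockout EB replicate 1 held adult liver RNA, with 10 liver markers summing to 1897 CPM against 3.49 to 25.02 CPM elsewhere. Counts of genes called, or values over gene lists, are given below also without knockout ESC replicate 2 and knockout EB replicate 1. These 2 are termed the libraries that stood apart. This choice was made after seeing the data, and the choice of replicate 2 over replicate 1 of knockout ESCs was not tested.

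Pluripotency is the ability of a cell to form every tissue of the embryo. OCT4 and SOX2 bind DNA side by side at many enhancers of ESCs and, with NANOG, sustain their own genes and one another's. NANOG is known to be high in the naive state and to fall as cells leave it, while OCT4, SOX2, SALL4 and UTF1 stay present in the primed epiblast. The set holds the core trio of transcription factors, further nuclear factors (SALL4, UTF1, ZFP296), a chromatin-bound pair (DPPA2 and DPPA4), an RNA-binding protein (DPPA5A) and a secreted ligand (GDF3).

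Pou5f1 (ENSMUSG00000024406.16) encodes OCT4, a POU-domain transcription factor, and lies on the forward strand of chromosome 17 from 35506018 to 35510772 (mm10, with GENCODE gene models). Its level was 490.3 and 474 CPM (control ESCs), 346 and 279 CPM (knockout ESCs), 426 and 439 CPM (control EBs) and 386 and 371 CPM (knockout EBs). The knockout ESC libraries were the lowest of all 8, and no 2 of the 4 groups overlapped. Sox2 (ENSMUSG00000074637.7), whose HMG-box protein pairs with OCT4 on DNA, is a single-exon gene on chromosome 3 from 34650405 to 34652461, inside an intron of the noncoding gene Sox2ot. It stood at 568 and 617 CPM (control ESCs), 326 and 237 CPM (knockout ESCs), 444 and 398 CPM (control EBs) and 314 and 328 CPM (knockout EBs). Control ESCs were highest, and the 2 knockout groups overlapped each other below both control groups. Nanog (ENSMUSG00000012396.12), a homeobox gene on chromosome 6 from 122707489 to 122714633, had 543 and 575 CPM (control ESCs), 516 and 473 CPM (knockout ESCs), 155 and 128 CPM (control EBs) and 193 and 184 CPM (knockout EBs). Its levels split by stage, with all 4 ESC libraries far above all 4 EB libraries.

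The bases before the start sites of these 3 genes are shown because the results turn on them and because OCT4 and SOX2 are known to bind their own network's genes. RefSeq windows of build GRCm38.p6 were matched for 5 of the 10 genes (Pou5f1, Sox2, Nanog, Utf1 and Zfp296). Each stretch stops before the RefSeq start site or the first base of the gene given above, whichever comes first. Negative positions below are counted from the RefSeq start site. All 3 are read from the forward strand. Capitals mark the letters ATGCAAA (octamer core, bound by OCT4), ACAATG (bound by SOX proteins) or AGGTCA (bound by nuclear receptors), on either strand.
Pou5f1 chr17:35505782-35506017: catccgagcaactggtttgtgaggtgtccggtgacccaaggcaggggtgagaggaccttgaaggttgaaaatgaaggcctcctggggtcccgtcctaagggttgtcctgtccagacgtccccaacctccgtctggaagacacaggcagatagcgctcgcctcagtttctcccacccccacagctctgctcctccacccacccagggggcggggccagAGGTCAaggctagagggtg
Sox2 chr3:34649745-34649994: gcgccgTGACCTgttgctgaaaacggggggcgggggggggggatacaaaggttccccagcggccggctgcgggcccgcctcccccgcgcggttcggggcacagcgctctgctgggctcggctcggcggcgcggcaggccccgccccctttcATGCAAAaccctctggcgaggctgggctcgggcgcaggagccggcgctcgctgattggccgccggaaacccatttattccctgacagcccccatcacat
Nanog chr6:122707239-122707488: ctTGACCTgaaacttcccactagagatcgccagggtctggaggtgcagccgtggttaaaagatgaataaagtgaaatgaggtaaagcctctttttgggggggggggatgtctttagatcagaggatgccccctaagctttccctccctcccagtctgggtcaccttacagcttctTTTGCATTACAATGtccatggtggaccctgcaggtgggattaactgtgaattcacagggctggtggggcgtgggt

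The Nanog stretch held the octamer core and the SOX letters run together as TTGCAT, 1 further base and ACAATG, with the first base at -74 from the start site. That composite was present in 4 of 32817 RefSeq windows of 300 bases (0.0122%), and 2 of the 4 are overlapping windows of Nanog. The Sox2 stretch held the octamer core at -99 and the Zfp296 window held it at -110, as part of the full octamer ATGCAAAT on the reverse strand. The octamer core was in 4.63% of all windows, the full octamer in 1.74%, the SOX letters in 12.6% and AGGTCA in 16.3%. The Pou5f1 stretch held AGGTCA at -33 and no octamer core, and the Utf1 stretch held none of these letters. The motifs were chosen with these sequences in view, and a match describes letters only.

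Sall4 (ENSMUSG00000027547.17) encodes a zinc finger protein of the spalt family that works with OCT4 and lies on the reverse strand of chromosome 2 from 168748332 to 168767943. It varied little by group, at 216 and 235 CPM (control ESCs), 214 and 181 CPM (knockout ESCs), 268 and 253 CPM (control EBs) and 232 and 239 CPM (knockout EBs). Control EBs were highest and knockout ESCs lowest, and the nearest libraries of the 2 ESC groups stood at 216 and 214 CPM. Utf1 (ENSMUSG00000047751.9), a chromatin-associated factor of undifferentiated cells on chromosome 7 from 139943789 to 139945112, ran the other way from Nanog by stage. It had 135 and 149 CPM (control ESCs), 157 and 68.8 CPM (knockout ESCs), 270.0 and 289.9 CPM (control EBs) and 211 and 225 CPM (knockout EBs). All 4 EB libraries were above all 4 ESC libraries, and the knockout ESC replicates lay on either side of the control pair. Zfp296 (ENSMUSG00000011267.8), a zinc finger gene on chromosome 7 from 19577287 to 19580656, had 40.7 and 43.9 CPM (control ESCs), 47.2 and 29.3 CPM (knockout ESCs), 23.8 and 20.3 CPM (control EBs) and 29.4 and 31.8 CPM (knockout EBs). Its knockout ESC replicates also straddled the control pair, and control EBs were lowest.

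Dppa2 (ENSMUSG00000072419.5) and Dppa4 (ENSMUSG00000058550.15) encode SAP-domain proteins that bind chromatin as a pair and lie next to each other on chromosome 16, Dppa4 from 48283733 to 48294237 and Dppa2 from 48303908 to 48319723. Dppa2 had 102 and 106 CPM (control ESCs), 116 and 136 CPM (knockout ESCs), 132 and 123 CPM (control EBs) and 129 and 146 CPM (knockout EBs). Control ESCs were lowest and the other 3 groups overlapped. Dppa4 had 166 and 173 CPM (control ESCs), 124 and 126 CPM (knockout ESCs), 181 and 175 CPM (control EBs) and 155 and 159.6 CPM (knockout EBs). The groups of Dppa4 did not overlap, and knockout ESCs were lowest.

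Dppa5a (ENSMUSG00000060461.5), also called Esg1, encodes an RNA-binding KH-domain protein and lies on chromosome 9 from 78367052 to 78368177. It was the most highly counted of the 10, at 1335 and 1378 CPM (control ESCs), 1060.3 and 1281 CPM (knockout ESCs), 873 and 847 CPM (control EBs) and 955 and 1019 CPM (knockout EBs). Control ESCs were highest, then knockout ESCs, knockout EBs and control EBs, without overlap. Gdf3 (ENSMUSG00000030117.5), a ligand of the TGF-beta family that signals through the receptors NODAL uses, lies on chromosome 6 from 122605403 to 122610087, in the same stretch as Nanog. It had 78.9 and 86.0 CPM (control ESCs), 59.4 and 66.3 CPM (knockout ESCs), 52.4 and 61.6 CPM (control EBs) and 54.2 and 54.9 CPM (knockout EBs). Control ESCs were highest, and the other 3 groups lay between 52.4 and 66.3 CPM.

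**Figure D1:**
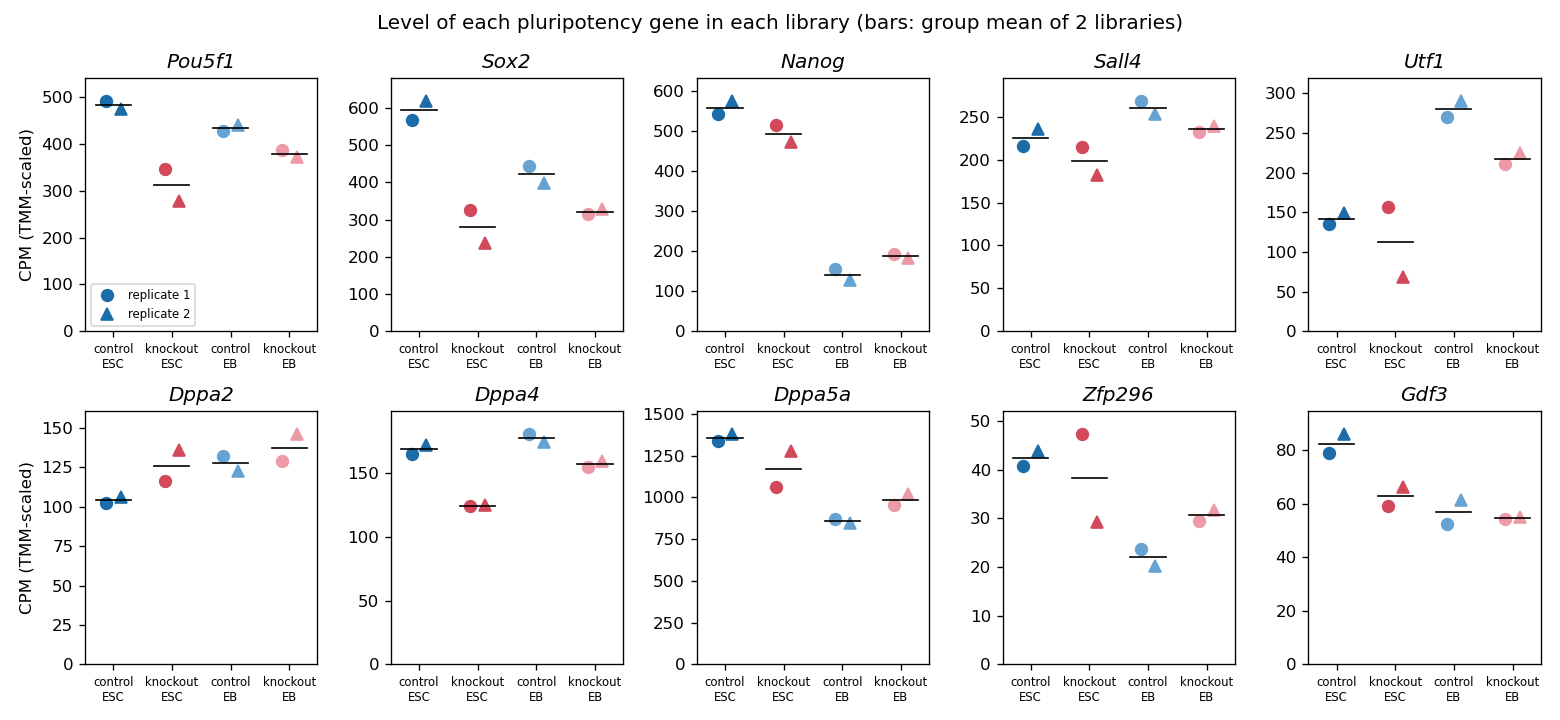
Level of each of the 10 genes in each library (TMM-scaled CPM, linear axes from 0), with circles for replicate 1, triangles for replicate 2 and a bar at the group mean. Nanog separates the 4 ESC from the 4 EB libraries, Sox2 has both knockout groups below both control groups, and the knockout ESC replicates of Utf1 lie at 157 and 68.8 CPM.

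Divided by gene length, so that genes can be set against one another, Dppa5a led in every group, at 2191 ± 48.4 CPM per kilobase in control ESCs (mean ± SD, n = 2 here and below). In control ESCs the order below it was Sox2 at 288 ± 16.8, Nanog at 249 ± 10.0, Pou5f1 at 214 ± 5.21, Utf1 at 116 ± 8.0, Dppa4 at 102 ± 3.00, Dppa2 at 42.6 ± 1.15, Sall4 at 40.7 ± 2.50, Gdf3 at 34.0 ± 2.07 and Zfp296 at 20.8 ± 1.11 CPM per kilobase. Dppa2 and Sall4 were the only neighbours in that order whose libraries overlapped. In knockout ESCs Nanog stood second at 220.5 ± 13.6 CPM per kilobase, above Pou5f1 at 139 ± 21.0 and Sox2 at 137 ± 30.6, and Pou5f1, Sox2 and Utf1 each overlapped the next. In knockout ESC replicate 1 alone Sox2, at 158 CPM per kilobase, was above Pou5f1 at 154, with the other places unchanged. In control EBs Nanog stood sixth at 63.1 ± 8.44 CPM per kilobase, and Utf1 stood second at 228 ± 11.4, above Sox2 at 205 ± 15.5 and Pou5f1 at 192 ± 4.03, which overlapped. In knockout EBs the order was the same but for Pou5f1 at 168 ± 4.74 CPM per kilobase, which was above Sox2 at 156 ± 4.66, with no overlap between any neighbours, and replicate 2 alone gave the same order. TPM rescales the same counts per length by a constant of each library. That it gave the same order in each of the 4 groups is therefore no separate check.

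**Figure D2:**
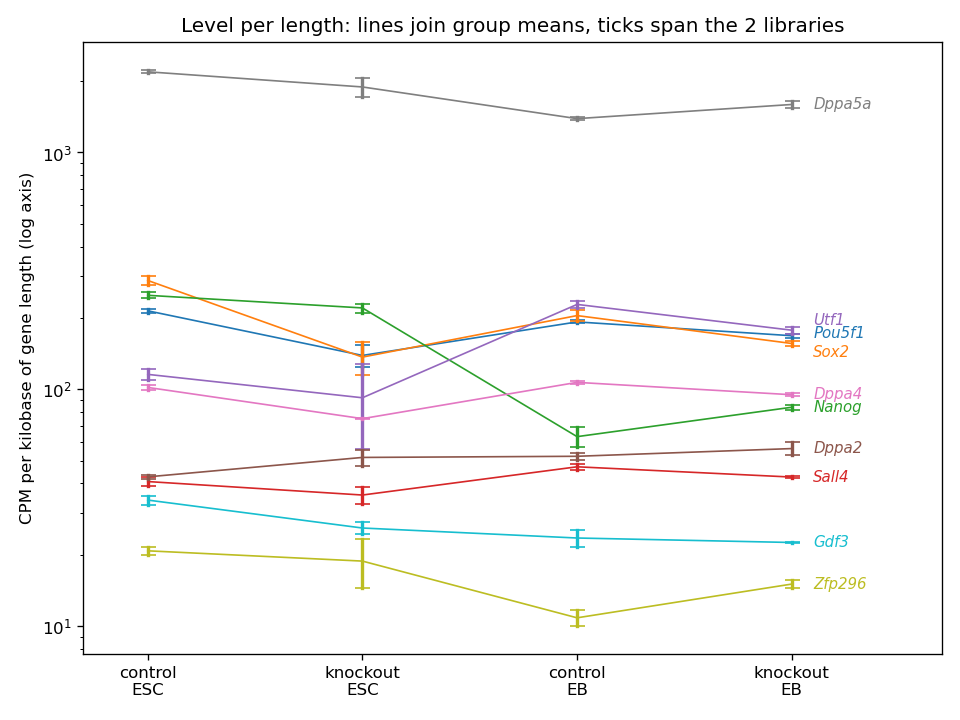
Level per kilobase of gene length (log axis) of the 10 genes in the 4 groups, with lines joining group means and ticks at the 2 libraries. Dppa5a lies above all others, Nanog goes from the third place in control ESCs to the sixth in control EBs, and Utf1 goes from the fifth to the second.

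In knockout ESCs, 4 of the 10 genes were lower than in control ESCs, none was called higher and 6 did not pass. The 4 were Sox2, Pou5f1, Dppa4 and Gdf3. A call needed an adjusted p below 0.05 in edgeR's quasi-likelihood test, with the Benjamini-Hochberg adjustment over all genes tested, and 6.2% of all genes were called lower and 8.3% higher by that rule. Sox2 fell most, to 47.5% of its control level (log2 difference -1.08 ± 0.13, estimate ± SE, adjusted p = 0.000466). Pou5f1 fell to 64.8% (-0.63 ± 0.10, adjusted p = 0.00214). Dppa4 fell to 73.8% (-0.44 ± 0.08, adjusted p = 0.00589) and Gdf3 to 76.2% (-0.39 ± 0.11, adjusted p = 0.0412). The median over the 10 genes was -0.27, beside -0.03 over all genes tested. By libraries alone, 7 of the 10 had both knockout ESC libraries below both controls (27.5% of all genes did) and Dppa2 had both above (25.1% of all genes did).

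Among the 6 genes that did not pass, Nanog had a log2 difference of -0.18 (95% interval -0.40 to 0.04, adjusted p = 0.286), Sall4 had -0.19 (-0.41 to 0.03) and Dppa5a had -0.21 (-0.41 to -0.02, adjusted p = 0.147). Dppa2 was the 1 gene with a positive estimate, 0.27 (0.03 to 0.51, adjusted p = 0.128), while its partner Dppa4 fell. Utf1 (-0.33, -0.93 to 0.27) and Zfp296 (-0.15, -0.57 to 0.28) had wide intervals. These 2 had the highest GC content of the set, 63.5% and 58.6%, in the 99.6th and 93.6th percentiles of the 12023 well-counted genes. They also differed most between the knockout ESC replicates, with replicate 2 minus replicate 1 at -1.19 for Utf1 and -0.69 for Zfp296. At the other end of these differences Dppa5a, with 49.4% GC, had 0.27 and Dppa2, with 43.7%, had 0.23. GC content did not order every gene. Nanog, with 45.9%, had -0.13, while Sox2 and Gdf3, each with 50.5%, had -0.46 and 0.16. Without knockout ESC replicate 2 the estimates of Utf1 and Zfp296 turned to 0.14 and 0.15, neither called, and without replicate 1 they were -1.06 and -0.54, both called.

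**Figure D3:**
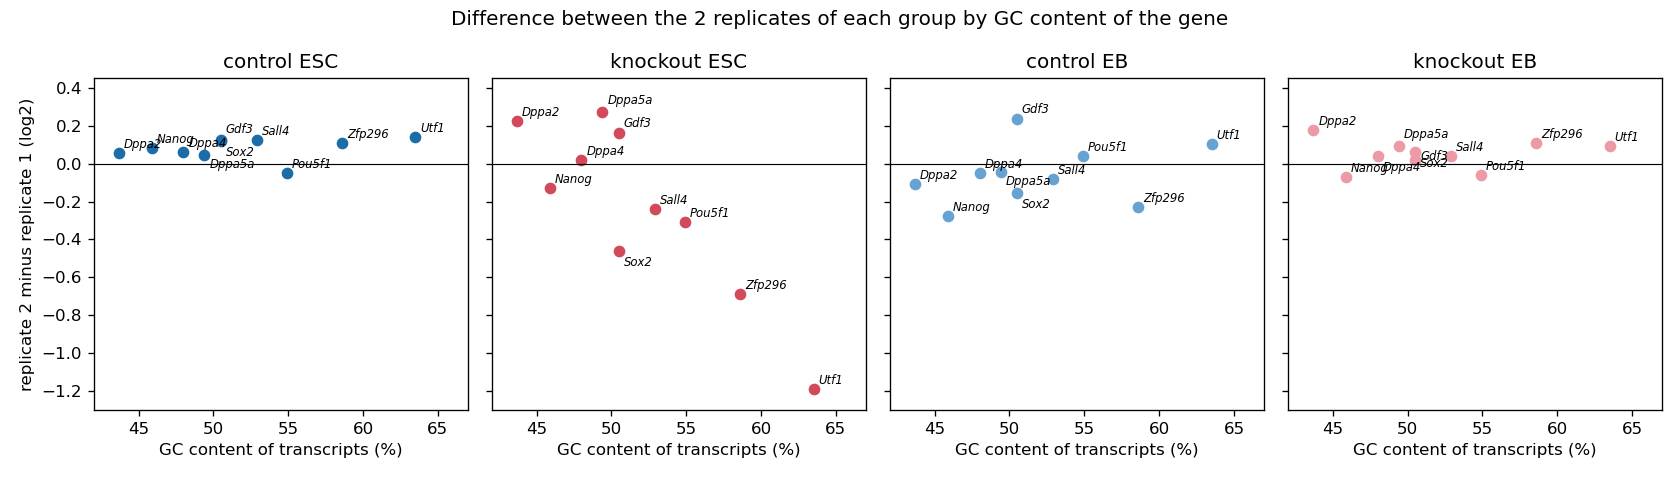
Difference between the 2 replicates of each group (replicate 2 minus replicate 1, log2 CPM) against the GC content of each gene's transcripts (%), 1 panel per group and 1 point per gene. In knockout ESCs the points run from 0.27 for Dppa5a down to -1.19 for Utf1, while in the other 3 groups all 10 genes lie between -0.27 and 0.23.

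When the GC trend was removed from each library, the same 4 genes were lower in knockout ESCs (Sox2 -1.14, Pou5f1 -0.61, Dppa4 -0.52, Gdf3 -0.45), and Dppa5a was lower as well (-0.28, adjusted p = 0.0143). Sox2 and Pou5f1 were called without each of the 8 libraries in turn, and the fit without both libraries that stood apart called 5 genes lower, the 4 and Dppa5a, beside 9.27% of all genes. With the GC trend removed 13.3% of all genes were called lower. The call of Dppa4 was lost in fits that left out control ESC replicate 1 (adjusted p = 0.0521) or 2 (0.093), and with only the ESC libraries fitted (0.059). The Gdf3 call was lost without either control ESC replicate (0.136 and 0.311), either control EB replicate (0.0522 and 0.052) or either knockout EB replicate (0.0829 and 0.0867), with genes averaging 1 CPM or more (0.0568) and with only the ESC libraries (0.132). Without knockout ESC replicate 1 the count was 7 lower and 1 higher, and the shares of all genes rose with it, to 15.2% lower and 10.7% higher.

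Markers of extraembryonic endoderm, a yolk sac lineage, moved with these falls. All 12 of a list of 12 were called higher in knockout ESCs, none was at 0, and their summed level was 1638 and 1677 CPM in control ESCs against 6679 and 6527 CPM in knockout ESCs. Its defining factors Gata6 and Sox17 had 15.4 and 20.3 CPM and 9.93 and 11.9 CPM in control ESCs, against 80.5 and 54.4 CPM and 61.6 and 35.8 CPM in knockout ESCs. In these bulk samples fewer pluripotent cells and less RNA of these genes per cell cannot be told apart, and the part of the endoderm markers in the falls was not tested. The 6 genes not called, measured in the same libraries, stood at 88.4% (Nanog), 87.7% (Sall4), 86.3% (Dppa5a), 79.6% (Utf1), 90.4% (Zfp296) and 121% (Dppa2) of control. Markers of trophectoderm were mixed, with Krt8 (1.25 ± 0.12) and Krt18 (1.18 ± 0.11) higher, Tfap2c (-2.02 ± 0.15) lower, and Cdx2 and Elf5 under 1 CPM in every library. Markers of primitive streak, neuroectoderm and fibroblasts summed to at most 32.2, 46.8 and 19.9 CPM in any library.

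In knockout EBs, Nanog was higher than in control EBs and the other 9 genes did not pass. Nanog stood at 133% of control (0.41 ± 0.10, adjusted p = 0.038). By the same rule 4.75% of all genes were called higher and 2.04% lower. The largest estimates among the other 9 were Zfp296 at 0.47 (95% interval 0.03 to 0.91, adjusted p = 0.202) and Sox2 at -0.39 (-0.68 to -0.10, adjusted p = 0.11). Utf1 had -0.36 (-0.95 to 0.23), Dppa5a 0.20 (0.00 to 0.40), Pou5f1 -0.19 (-0.42 to 0.03), Dppa4 -0.17 (-0.36 to 0.01), Sall4 -0.14 (-0.36 to 0.07), Dppa2 0.11 (-0.13 to 0.35) and Gdf3 -0.06 (-0.31 to 0.19). The median was -0.10, beside 0.00 over all genes. By libraries alone, 5 genes had both knockout libraries below both controls (29.4% of all genes did) and 3 had both above (30% did).

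The calls in EBs changed with the libraries fitted. Nanog was no longer called when the fit left out control EB replicate 1 (adjusted p = 0.0674) or 2 (0.225), knockout EB replicate 1 (0.231) or 2 (0.118), or control ESC replicate 1 (0.104) or 2 (0.105). With only the 4 EB libraries fitted, 3 genes were higher (Nanog, Dppa5a and Zfp296) and 3 lower (Sox2, Pou5f1 and Utf1), and the same counts of 3 and 3 came from the fits without either knockout ESC replicate. These fits called more of all genes too, 9.06% to 9.41% higher and 7.69% to 8.04% lower. Without both libraries that stood apart the counts were again 3 and 3, beside 5.96% higher and 4.8% lower. With the GC trend removed, Sox2 (-0.51), Dppa4 (-0.29), Pou5f1 (-0.26) and Sall4 (-0.24) were called lower and Zfp296 (0.49) higher, and Nanog, at 0.31, was not called (adjusted p = 0.0525), beside 11% of all genes lower and 7.26% higher. The Sox2 estimate was negative in every one of these fits, from -0.32 to -0.51 over the alternatives run, and without both libraries that stood apart it was -0.36 (adjusted p = 0.00158). The 12 endoderm markers were all called higher in knockout EBs too, with sums of 4089 and 4480 CPM against 2038 and 2116 CPM, and their part was not tested.

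**Figure D4:**
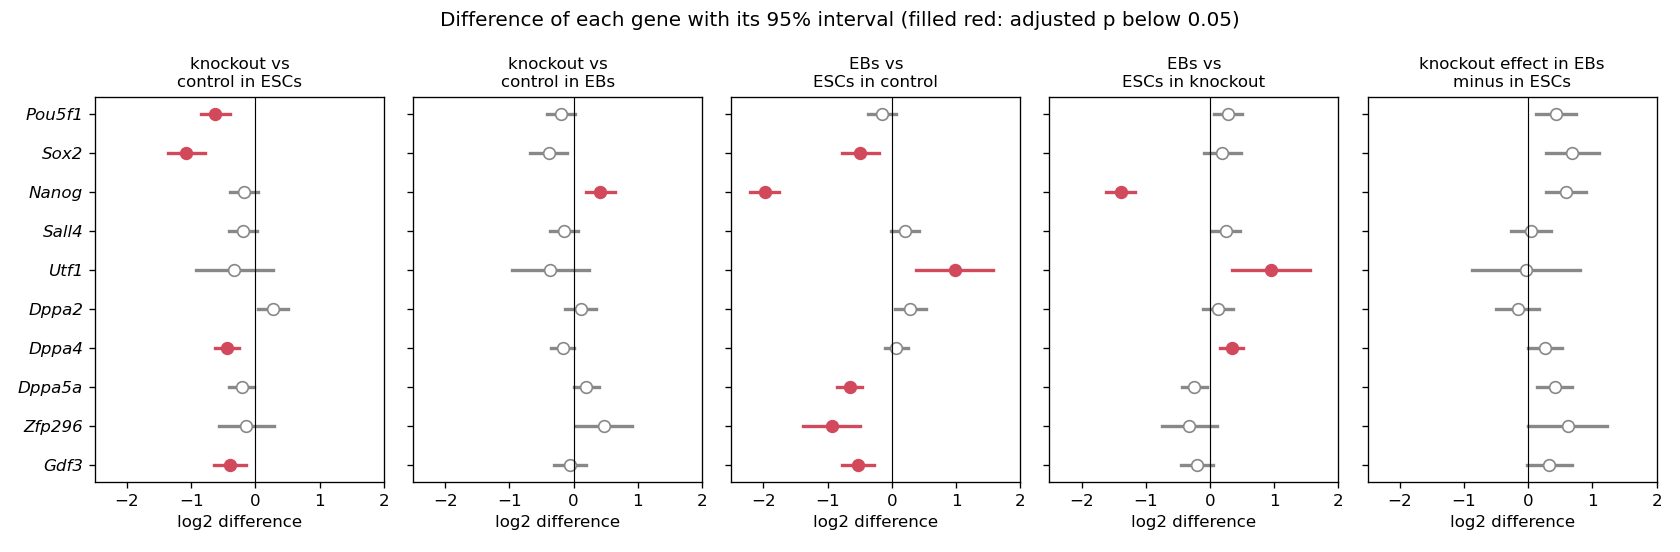
Log2 difference (point) and 95% interval (line) of each gene in the 5 contrasts, filled red where the adjusted p was below 0.05. In ESCs Sox2, Pou5f1, Dppa4 and Gdf3 lie below 0 in the knockout, in EBs Nanog alone is called, and in the contrast of the 2 knockout effects all 10 points are open.

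Over 3 days of EB culture in control cells, 5 of the 10 genes fell, 1 rose and 4 did not pass, where 9.63% of all genes were called lower and 8.6% higher. Nanog fell most, to 25.3% of its ESC level (-1.98 ± 0.10, adjusted p = 2.22e-06). Zfp296 fell to 52.2% (-0.94 ± 0.20, adjusted p = 0.00892), Dppa5a to 63.4% (-0.66 ± 0.09, adjusted p = 0.000756), Gdf3 to 69.1% (-0.53 ± 0.11, adjusted p = 0.00896) and Sox2 to 71.1% (-0.49 ± 0.13, adjusted p = 0.0262). Utf1 rose to 197% (0.98 ± 0.27, adjusted p = 0.0306). No gene had overlapping ESC and EB libraries in control, with 6 lower in both EB libraries (33.1% of all genes were) and 4 higher (31.8% were). Pou5f1 had -0.16 (95% interval -0.38 to 0.07), Dppa4 0.07 (-0.11 to 0.25), Sall4 0.21 (-0.01 to 0.43) and Dppa2 0.29 (0.05 to 0.53, adjusted p = 0.0925). Nanog and Dppa5a were called without each of the 8 libraries in turn. The calls of Sox2 (adjusted p up to 0.218), Zfp296 (up to 0.107) and Utf1 (up to 0.224) were lost without any 1 of the 4 control libraries, and that of Gdf3 without either control ESC replicate (0.056 and 0.124) or control EB replicate 1 (0.106). With the GC trend removed the rise of Utf1 was 0.65 and remained called, and by DESeq2 it was 0.99 and was not called (adjusted p = 0.0715). Without both libraries that stood apart, 6 genes were lower and 3 higher, beside 15.2% and 15.8% of all genes. Of the 12 endoderm markers, 6 were called higher and 3 lower over these days in control, and their part was not tested.

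Over the same 3 days in knockout cells, Nanog fell, Utf1 and Dppa4 rose, and 7 genes did not pass, where 7.11% of all genes were called lower and 8.23% higher. Nanog went to 38.1% of its knockout ESC level (-1.39 ± 0.10, adjusted p = 2.27e-05) and was called without each of the 8 libraries in turn. Dppa4 went to 126% (0.34 ± 0.08, adjusted p = 0.0235) and Utf1 to 193% (0.95 ± 0.27, adjusted p = 0.0409). Pou5f1 (0.28, 95% interval 0.05 to 0.50, adjusted p = 0.0894) and Sox2 (0.19, -0.10 to 0.48) had positive estimates here and negative ones in control. Sall4 had 0.25 (0.03 to 0.47), Dppa2 0.12 (-0.11 to 0.36), Gdf3 -0.20 (-0.45 to 0.05), Dppa5a -0.25 (-0.44 to -0.05) and Zfp296 -0.32 (-0.75 to 0.11). Zfp296 was called lower without knockout ESC replicate 2 (-0.63, adjusted p = 0.00541), without both libraries that stood apart (-0.59, 0.0168) and with the GC trend removed (-0.60, 0.00175), while without knockout ESC replicate 1 it had 0.076 and was not called. By libraries alone 4 genes were higher in both knockout EB libraries than in both knockout ESC libraries (28.9% of all genes were) and 3 were lower (29.2% were). Dppa4 was no longer called when the fit left out control ESC replicate 1 (0.0642) or 2 (0.064) or knockout EB replicate 1 (0.124) or 2 (0.168), or took only the knockout libraries (0.107). Utf1 was not called without any library other than the 2 of knockout ESCs (0.1 to 0.135), with only the knockout libraries (0.167), by DESeq2 (0.0925), with library totals (0.0584) or with genes averaging 1 CPM or more (0.0567). Without knockout ESC replicate 2 the estimate of Utf1 was 0.47, against 1.68 without replicate 1, and that of Sox2 turned to -0.02. Without both libraries that stood apart 3 genes were higher and 2 lower, beside 6.48% and 5.08% of all genes. Of the 12 endoderm markers, 3 were called higher and 6 lower in knockout, and their part was not tested.

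The knockout effect in EBs minus that in ESCs was positive for 8 of the 10 genes and for 53.7% of all genes tested. By edgeR 0 of the 10 were called at an adjusted p below 0.05, where 1.38% of all genes were, and 6 had an unadjusted p below 0.05, where 12.5% of all genes did. Sox2 had the largest difference, 0.68 ± 0.19 (95% interval 0.27 to 1.09, adjusted p = 0.132), followed by Zfp296 at 0.62 ± 0.28 (0.00 to 1.23, adjusted p = 0.4), Nanog at 0.59 ± 0.14 (0.27 to 0.91, adjusted p = 0.0908), Pou5f1 at 0.43 ± 0.14 (0.12 to 0.75, adjusted p = 0.22) and Dppa5a at 0.41 ± 0.13 (0.13 to 0.69, adjusted p = 0.182). Gdf3 had 0.33, Dppa4 0.26, Sall4 0.05, Utf1 -0.03 and Dppa2 -0.16. DESeq2 called 2 of them, Sox2 (adjusted p = 0.0321) and Nanog (0.031), beside 1.25% of all genes positive. With the GC trend removed, where 2.08% of all genes were called positive, 3 were called: Sox2 at 0.63 (0.0446), Nanog at 0.56 (0.045) and Pou5f1 at 0.35 (0.0381). Without knockout ESC replicate 2, Sox2 (0.47), Nanog (0.53), Pou5f1 (0.29) and Dppa5a (0.56) were called and Utf1 was called in the other direction (-0.50), while without knockout ESC replicate 1 the count was 6, with Utf1 at 0.70. Of all genes, 3.06% were called positive and 2.33% negative in the first of these fits and 8% and 3.15% in the second. With both libraries that stood apart left out, 3 were positive and 1 negative, beside 2.32% and 1.99%. The endoderm markers went the other way in this contrast, with 7 of 12 called negative, 0 positive and a median of -1.07, and their part was not tested. The contrasts share libraries, so their estimates for a gene are not independent of one another.

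Ratios of 2 genes within a library, each per length, do not depend on the scaling between libraries. A GC trend such as that between the knockout ESC replicates is not removed from them. GC content was 45.9% for Nanog, 54.9% for Pou5f1, 50.5% for Sox2, 48% for Dppa4 and 43.7% for Dppa2. Nanog over Pou5f1 was 1.11 and 1.22 in control ESCs, 1.5 and 1.7 in knockout ESCs, 0.364 and 0.292 in control EBs, and 0.501 and 0.497 in knockout EBs. At each stage both knockout libraries had more Nanog RNA relative to Pou5f1 than both control libraries. Sox2 over Pou5f1 was 1.27 and 1.42 in control ESCs against 1.03 and 0.927 in knockout ESCs, and 1.14 and 0.992 in control EBs against 0.890 and 0.966 in knockout EBs. Both knockout libraries lay below both controls at each stage, with a narrow gap in EBs. Dppa4 over Dppa2 was 2.38 and 2.39 in control ESCs, 1.57 and 1.36 in knockout ESCs, 2.01 and 2.10 in control EBs, and 1.78 and 1.61 in knockout EBs. The groups did not overlap at either stage. With 2 libraries against 2, the smallest p an exact two-sided permutation test can give is 0.333, so the ratios are given without a test.

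**Figure D5:**
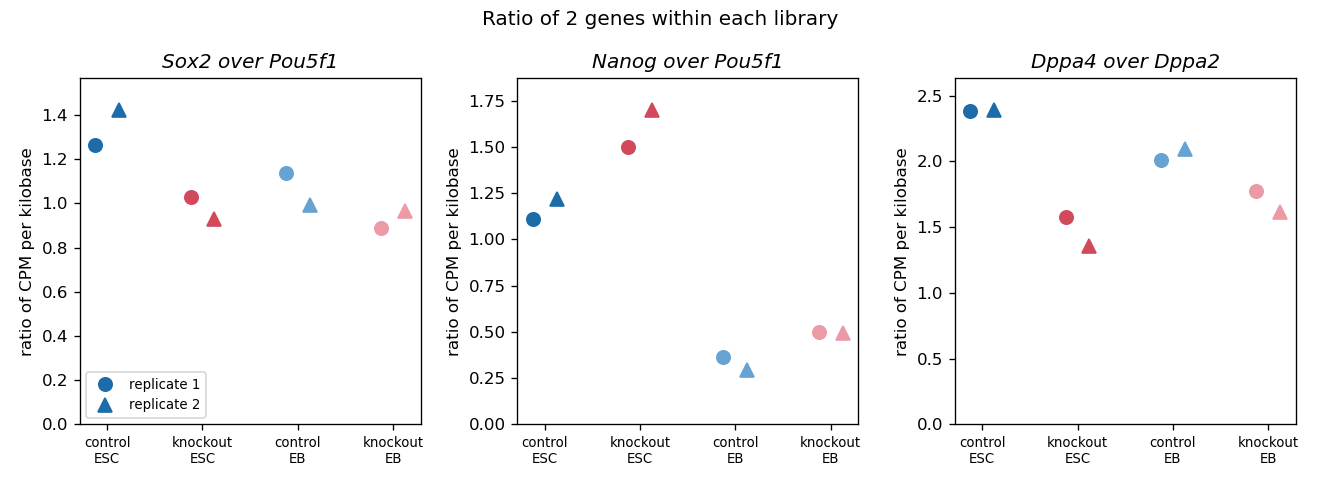
Ratio of 2 genes within each library (CPM per kilobase over CPM per kilobase, linear axes from 0), circles for replicate 1 and triangles for replicate 2. Nanog over Pou5f1 is higher, and Sox2 over Pou5f1 and Dppa4 over Dppa2 are lower, in the knockout libraries than in the controls of the same stage.

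Across the 8 libraries, which fall into 4 groups and share GC trends, the log2 levels of several pairs of the 10 genes ran together. Pearson's r, given as a description over 8 libraries, was 0.94 for Pou5f1 with Sox2, 0.95 for Sall4 with Utf1, 0.91 for Nanog with Dppa5a and 0.86 for Nanog with Zfp296. Dppa4 had 0.84 with Pou5f1 and 0.83 with Sall4, and Gdf3 had 0.84 with Dppa5a, so these pairs were not separate blocks. Nanog with Pou5f1 had -0.10 and Nanog with Sox2 had 0.19. Utf1 ran against Dppa5a (-0.81) and Nanog (-0.80), and the pair Dppa2 and Dppa4 had -0.16. Over the 6 libraries other than the 2 that stood apart, r was 0.93 for Pou5f1 with Sox2, 0.87 for Sall4 with Utf1, 0.90 for Nanog with Dppa5a, 0.95 for Nanog with Zfp296, 0.164 for Nanog with Pou5f1, 0.45 for Nanog with Sox2 and 0.075 for Dppa2 with Dppa4. Among 10622 other named genes averaging 5 CPM or more, the most alike were Cdyl2 (0.999) and Ccdc117 (0.996) for Nanog, Hdac4 and Kdm1a (0.984 each) for Sox2, and Phf13 and Tmem131 (0.989 each) for Pou5f1. The genes most like Utf1 were Zc3h7b and Pik3r2 (0.997 each), those most like Sall4 were Fam193a (0.993) and Nr1d1 (0.992), and those most like Dppa5a were Trps1 (0.996) and Prps1 (0.99). Map7d3 (0.992) came first for Dppa4, Prpf8 (0.987) for Gdf3, Ttc28 (0.983) for Zfp296 and Pole3 (0.973) for Dppa2. A high r was common: the genes above 0.9 numbered from 41 for Dppa2 to 800 for Utf1.

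The 24 partners and shared targets of the core trio that were listed, all tested, had 11 lower and 2 higher in knockout ESCs (median -0.29 against -0.03 over all genes). Of all genes, 6.2% were called lower and 8.3% higher. Lin28a, an RNA-binding pluripotency factor, was lower by -0.97 ± 0.08 (adjusted p = 5.73e-05), the nuclear receptor gene Nr0b1 by -1.11 ± 0.15 (0.000858), and Nr5a2, whose product binds the Pou5f1 promoter, by -0.75 ± 0.11 (0.00137). In knockout EBs 7 were higher and 1 lower, where 4.75% and 2.04% of all genes were. Among the 7 were Tbx3 (1.35 ± 0.14), Klf4 (1.11 ± 0.15), Tfcp2l1 (1.09 ± 0.10) and Fbxo15 (1.07 ± 0.12), of which the first 3 encode transcription factors of naive cells. In the difference of the 2 knockout effects 4 of the 24 were called, all positive, where 0.742% of all genes were: Tfcp2l1 (1.43 ± 0.13), Nr5a2 (1.07 ± 0.16), Esrrb (1.0 ± 0.16) and Zfp42 (0.94 ± 0.13). Over 3 days 13 fell and 3 rose in control, where 9.63% and 8.6% of all genes did, led by Tfcp2l1 (-3.61 ± 0.10), Klf4 (-2.16 ± 0.15), Esrrb (-1.80 ± 0.11) and Zfp42 (-1.77 ± 0.10). In knockout 9 fell and 5 rose, where 7.11% and 8.23% of all genes did. Among these, Otx2, a gene of the primed epiblast, had 1.5 ± 0.1 in knockout, and it had 1.48 ± 0.10 in control. Without both libraries that stood apart, the median of the 24 was -0.33 in knockout ESCs, 0.06 in knockout EBs and 0.45 in the difference. Over 3 days it was -0.53 in control and -0.13 in knockout. With all 8 libraries these medians were -0.29, 0.07, 0.48, -0.53 and -0.27.

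Of 13 relatives of the 10 genes in family or sequence, 12 were tested, and 4 were lower and 1 higher in knockout ESCs. Of all genes, 6.2% were lower and 8.3% higher. Dppa3, a germ cell and oocyte factor near Nanog, had -1.43 ± 0.19 (adjusted p = 0.000761), Sox15 had -1.22 ± 0.18 and Sall1 had -0.45 ± 0.10, while Khdc3, a KH-domain relative of Dppa5a, had 1.72 ± 0.32. In knockout EBs Sall2 (-1.19 ± 0.12), Pou3f1 (-1.20 ± 0.18) and Sall1 (-0.42 ± 0.10) were lower and Khdc3 (2.62 ± 0.36) was higher, beside 2.04% and 4.75% of all genes. Without both libraries that stood apart, the median of the 12 was -0.37 in knockout ESCs and -0.29 in knockout EBs. With all 8 libraries it was -0.40 and -0.34. Pou3f1, a POU-domain relative of Pou5f1 and a gene of the primed epiblast, rose over 3 days from 10.5 ± 1.44 to 109 ± 3.00 CPM in control and from 5.65 ± 2.33 to 47.2 ± 4.58 CPM in knockout.

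Of 12 ligands, receptors and mediators of the pathway of GDF3, 11 were tested, and 3 were lower and 1 higher in knockout ESCs. Among all genes 6.2% were lower and 8.3% higher. Lefty1, a secreted inhibitor of NODAL, had -1.22 ± 0.15 (adjusted p = 0.000486), Lefty2 had -0.45 ± 0.08 (0.00314), the SMAD corepressor gene Skil had -1.005 ± 0.122 (0.000431), and Smad2, a signal mediator, had 0.40 ± 0.09 (0.0142). In knockout EBs Skil alone was called (-0.53 ± 0.12, adjusted p = 0.0274), where 2.04% of all genes were called lower. Lefty1 stood at 187 ± 7.49 CPM in EBs of the control and 187 ± 0.297 CPM in those of the knockout. The difference of the 2 knockout effects was called positive for Lefty1 (1.21 ± 0.21, adjusted p = 0.025) and Lefty2 (0.58 ± 0.11, adjusted p = 0.0324), beside 0.742% of all genes. Gdf3 itself had 0.33 in that contrast and was not called. Without both libraries that stood apart, Skil had -1.21, Lefty1 -0.94, Lefty2 -0.43 and Smad2 0.36 in knockout ESCs. In that fit Skil had -0.52 in knockout EBs, and Lefty1 had 0.94 and Lefty2 0.51 in the difference.

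All 10 listed genes of the 2-cell-like state, which DPPA2 and DPPA4 are known to activate, were called higher in knockout ESCs (median 2.18) and in knockout EBs (median 2.72). Of all genes, 8.3% and 4.75% were called higher in these comparisons. When both libraries that stood apart were left out, the medians were 2.09 and 2.81. Their summed level was 104 and 109 CPM (control ESCs), 388 and 504 CPM (knockout ESCs), 28.8 and 35.7 CPM (control EBs) and 188 and 210.3 CPM (knockout EBs). Zscan4d went from 34.7 ± 2.06 to 147 ± 38.1 CPM in ESCs (2.08 ± 0.17), and Usp17la from 6.25 ± 0.892 to 42.9 ± 6.18 CPM (2.77 ± 0.19). Several of the 10, such as the Zscan4 and Usp17 genes, have copies of nearly the same sequence, so the count of each single copy is uncertain. Dppa2 was not called in either comparison, and Dppa4 was lower in knockout ESCs.

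Of 13 listed neighbours of the 10 genes on their chromosomes, 10 were tested. In knockout ESCs 1 of the 10, Dppa3, was called, lower, where 6.2% of all genes were. Nanog beside it did not pass and Gdf3 fell. In knockout EBs 1 of the 10 was called, higher, where 4.75% of all genes were. It was Slc2a3, a glucose transporter gene of the same stretch of chromosome 6 (0.30 ± 0.07, adjusted p = 0.0276). Over 3 days in control Dppa3 (-1.24 ± 0.19), Slc2a3 (-0.51 ± 0.07) and Morc1 (-0.83 ± 0.11), which neighbours Dppa2 and Dppa4, were lower, where 9.63% of all genes were. In the 6 other libraries, without the 2 that stood apart, 11 were tested. Their median was 0.06 in knockout ESCs and 0.26 in knockout EBs, beside 0.02 and 0.21 for the 10 tested with all 8 libraries.

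Some counts of the 10 genes could share reads with other genes. Pou5f1, Sox2, Utf1 and Gdf3 had no stretch of at least 200 bases with at least 90% identity in the transcripts of another gene. Dppa5a had such stretches in 10 genes that together held 1700 counts over the 8 libraries against 121003 for Dppa5a, Dppa2 in 6 pseudogenes with 386 counts against 13637, and Dppa4 in 2 pseudogenes with 805 against 17386. Nanog, with 2242 bases, shared stretches of 200 to 245 bases with 41 genes, so its counts are less certain than those of Pou5f1 and Sox2. Those genes together held 348048 counts, 57827 in the largest and 46 in Nanog-ps1, against 38533 for Nanog. These are counts over whole genes, and how many fell in the shared stretches was not measured. The transcripts of Zfp296 share 263 bases with those of Gemin7 on the opposite strand, which held 3135 counts against 3693 for Zfp296. Without a stated strand setting, reads from those bases cannot be told apart. Antisense transcripts overlapping Pou5f1 and Sall4 held 8 and 67 counts.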

How the data were processed

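RNA was measured in 8 poly(A)-selected libraries, 2 in each of 4 groups taken from the labels. The authors deposited whole-number counts per gene with no scaling applied, per the file headers. It also gives a length for each gene. Tools named in the submitters' processing notes are featureCounts, HISAT2 and DESeq2, with build mm10, while versions, the strand setting and the rule for multi-mapping reads are not given in the sources.

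The rule took the 10 named symbols, matched through GENCODE M21 (55141 of 55401 IDs had a symbol). Genes passing edgeR's filterByExpr (17125) were scaled by TMM factors and fitted with edgeR's quasi-likelihood test, all 8 libraries in 1 fit with 1 mean per group (common biological variation 0.132). Benjamini-Hochberg adjustment ran over all genes tested, with calls below 0.05. CPM and CPM per kilobase were computed from the deposited counts. Intervals are 95%. The test of the knockout in ESCs was also run on simulated counts. These had the same spread for all genes, no GC trend and no liver RNA, so that run does not cover those features. GC content and near copies came from GENCODE transcripts, the latter with blastn 2.17.0, and promoter windows from RefSeq GRCm38.p6. DESeq2 1.42.0, edgeR 4.0.16 and limma 3.58.1 ran in R 4.3.3.

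The 10 genes, the lists of partners, relatives, pathway genes, 2-cell-like genes, neighbours and cell type markers, and the tests were chosen with earlier results of these data known. All 10 genes are named whatever their result, with up to 4 genes per list and contrast by smallest adjusted p below 0.05, Zfp462, and the genes most like each by correlation. A list gene that this rule names is not reported here. Marker levels beside a result (Gata6, Sox17, Cdx2, Elf5) and Pou3f1 levels were named for their role.

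Alternatives were median-of-ratios factors, library totals, every gene with a count, genes averaging 1 CPM or more, DESeq2, only the groups compared, the replicate number as a block, the trend on GC content removed (a spline with 5 degrees of freedom) and each library left out. Replicate differences correlated from -0.0443 to 0.0414 between groups, but -0.234 between the 2 EB groups, so the shared numbers were not taken as pairs. A crossed block, and leaving out knockout ESC replicate 2 and knockout EB replicate 1 together, were added after seeing the data.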

Additional observations from a re-analysis of the deposited data

Results flagged for a closer look

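Nanog was lower in both knockout ESC libraries than in both control ESC libraries and higher in both knockout EB libraries than in both control EB libraries, and Dppa5a did the same. The knockout effect in EBs minus that in ESCs was 0.59 for Nanog (edgeR adjusted p = 0.0908) and 0.41 for Dppa5a (adjusted p = 0.182), and neither passed. For Pou5f1 both EB libraries were below both ESC libraries in control and above them in knockout. The change over 3 days in knockout minus that in control was 0.43 (adjusted p = 0.22) and did not pass.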

How the results depend on the processing

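The counts of the 10 genes called changed under several settings. With only the groups compared, the counts called higher and lower were 0 and 2 for the knockout in ESCs, 3 and 3 in EBs, 3 and 6 for EBs against ESCs in control, and 0 and 1 in knockout, where 5.88% and 2.52%, 9.06% and 7.94%, 18.2% and 16.4%, and 2.39% and 2.63% of all genes were called. Without a low-count filter 2 and 2 were called for the knockout in EBs, where 4.5% and 2.04% of all genes were. That setting called 2 lower for EBs against ESCs in knockout (4.59% of all genes) and 2 higher for the difference of the knockout effects (1.4%). DESeq2 called 0 higher for EBs against ESCs in control (8.66% of all genes), 1 higher in knockout (8.5%), and 2 higher for the difference (1.25%). A mean of at least 1 CPM gave 3 lower for the knockout in ESCs (5.82% of all genes) and 1 higher for EBs against ESCs in knockout (8.38%). In the latter comparison library totals gave 1 higher (6.64% of all genes) and 2 lower (9.15%). With the GC trend removed 4 were lower for the knockout in EBs (11% of all genes) and 2 were higher for EBs against ESCs in control (14.8%). In knockout 2 were lower (10.8%), and 3 were higher for the difference (2.08%). Without both knockout ESC replicate 2 and knockout EB replicate 1, the counts were 3 and 3 for the knockout in EBs, 3 higher for EBs against ESCs in control, 2 lower in knockout, and 3 higher and 1 lower for the difference.

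Leaving out 1 library at a time gave 0 to 1 higher and 2 to 7 lower for the knockout in ESCs, 0 to 3 higher and 0 to 3 lower in EBs, 0 to 3 higher and 2 to 6 lower for EBs against ESCs in control, 0 to 5 higher and 1 to 2 lower in knockout, and 0 to 6 higher and 0 to 1 lower for the difference. The shares of all genes called moved too: over these fits they ran from 2.64% to 10.7% higher and 1.48% to 15.2% lower for the knockout in ESCs, 1.07% to 9.41% and 0.219% to 8.04% in EBs, 1.91% to 15.2% and 2.61% to 15% for EBs against ESCs in control, 2.76% to 17.6% and 1.87% to 12.3% in knockout, and 0% to 8% and 0% to 3.15% for the difference. Single genes turned direction as follows. For the knockout in ESCs Utf1 ranged from -1.06 to 0.14 and Zfp296 from -0.54 to 0.15 over the libraries left out, and both were positive without both libraries that stood apart (0.17 and 0.18). For the knockout in EBs Gdf3 ranged from -0.18 to 0.061. For EBs against ESCs in knockout Sox2 ranged from -0.021 to 0.45 (-0.009 without both) and Zfp296 from -0.63 to 0.076. For the difference Utf1 ranged from -0.50 to 0.70 and Sall4 from -0.066 to 0.19 (-0.028 with the GC trend removed, -0.067 without both), and Dppa2 from -0.26 to -0.043 (0.022 without both). The cause was not tested.

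For Utf1 the knockout effect in EBs minus that in ESCs was 0.0088 with the replicate number as a block, against -0.03 without it. It was 0.0114 with the crossed block, and neither block changed a call of the 10 genes. Median-of-ratios factors changed no call of the 10 genes. The lowest count of the 10 genes in any library was 259, for Zfp296 in control EBs. No result with an exact test on 2 against 2 libraries could fall below 0.333.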
